A study of Mus musculus with 22 samples.

Results

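The genes described here are 35 interferon-stimulated genes, out of 46603 genes in the count table, followed through the activation of mouse CD8+ T cells. They were chosen by name, with earlier results of these data known, as genes of the type I interferon response that were higher in naive knock-in cells. Each had to reach a mean of 10 counts over the 22 libraries, and all 35 did, the lowest being Phf11d with 118.1. All 35 also passed the filter on low counts and were among the 21183 genes tested. The naive difference between knock-in and control cells is therefore given below as a description, without a test.

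RNA was sequenced in bulk from CD8+ T cells of 8 mice, which kill cells that show foreign peptide on MHC class I. Mice of the line labelled Tcaim KI Cd4Cre and the genotype label hocre are the knock-in (KI, 3 mice), and mice of the same line labelled wtcre are the controls (wt, 3 mice). Mice of the line labelled Tcaim KO Cd4Cre, genotype label hocre, form the third group (KO, 2 mice). The meaning of these genotype labels was taken from the group sizes in the study design, and the labels give no ages. Every line name carries a Cre recombinase under the Cd4 promoter, which is active while T cells that bear an alpha-beta receptor develop. Naive cells were obtained by magnetic removal of other cells from spleen and lymph nodes. They were sequenced unstimulated or following stimulation for 24 h or 48 h by anti-CD3 bound to the plate (2 µg/ml) and soluble anti-CD28 (1 µg/ml), antibodies that stand in for antigen and costimulation. KI and wt mice gave a library at all 3 times and KO mice naive and at 48 h, and KO cells at 24 h were not analysed here. The labels place the mice in experiments 1, 3 and 5, which serve as replicate numbers, with 1 KI and 1 wt mouse of the same sex in each. The pair of experiment 5 and both KO mice were female, and the other mice were male. No controls of the KO line were analysed here.

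Total counts per library ran from 62551905 to 93489115. Tcaim had 138 to 145 CPM (counts scaled to the library total after TMM adjustment) in naive KI libraries against 14.6 to 15.2 in wt, and 178 to 260 against 8.38 to 11.98 after stimulation. In libraries labelled KO the naive values were 14.9 and 19.6 CPM and those at 48 h between 5.99 and 11.7, so gene-level counts did not show a loss shared by these libraries. The CD8 genes Cd8a and Cd8b1 had at least 424.5 CPM in every library. The summed level of 7 B cell markers was 1361 to 1935 CPM in naive KI, 1619 to 2299 in naive wt and 1005 to 5432 in naive libraries labelled KO. Myeloid markers (7 genes) summed to 97.8 to 201 CPM in naive KI and 105 to 244 in naive wt, and NK markers (4 genes) to 30.4 to 50.1 and 26.0 to 77.4. In naive KI against wt 0 of 7 B cell (median log2 fold change -0.59), 0 of 7 myeloid (-0.38) and 0 of 4 NK markers (-0.46) were positive. None of them was called, and 2 of 5 plasmacytoid dendritic cell markers were positive. Of the 5 plasmacytoid dendritic cell markers, which summed to 279 to 307 CPM in naive KI and 294 to 304 in naive wt, the defining Siglech had at most 0.893 and 1.498 CPM. The sum of 8 memory CD8 markers was 916 to 1095 CPM in naive KI and 641 to 780 in naive wt, without overlap. Of these 8 genes 3 were positive in naive KI against wt (median -0.01 on the log2 scale) and 0 were called, so a minority of the list carried the sum. The part of these cells in the naive difference was not tested.

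Type I interferons signal through the receptor pair Ifnar1 and Ifnar2 and the kinases Jak1 and Tyk2. A complex that contains Stat2 and Irf9, ISGF3, then binds the interferon-stimulated response element (ISRE) in front of its target genes. Among the targets are sensors of foreign nucleic acid, enzymes and binding proteins that block viruses, the ubiquitin-like modifier Isg15, and Usp18, which removes Isg15 and damps the receptor. T cells hold a basal level of this response, and interferon limits or supports their expansion depending on when it acts.

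The promoter sequences of members that later went different ways are shown first. Only members whose window held the ISRE core are printed, and not all windows held it. RefSeq promoter windows (assembly GRCm38.p6) reach from 250 bases before to 50 after a gene's start, and 26 of the 35 members had one. The ISRE core GAAANNGAAA, searched on both strands, was in 15 of these 26 (57.7%) and in 3.44% of 32851 windows of that length. Overlapping matches were each counted. The element TTCNNNGAA (GAS), an element of the interferon gamma response that can overlap an ISRE, was in 3 of 26 (11.5%) and in 8.30% of all windows. Capitals below mark the ISRE core on the gene's strand, read as GAAANNGAAA or, where the element lies on the other strand, as its reverse complement. The first 3 come from members whose KI excess remained at 48 h, the next 4 from members whose excess was there at 24 h and not at 48 h, and the last 3 from members that had lost most of it by 24 h.

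Ifit3: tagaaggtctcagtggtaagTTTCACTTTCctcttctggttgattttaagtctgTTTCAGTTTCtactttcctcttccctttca
Ifit3b: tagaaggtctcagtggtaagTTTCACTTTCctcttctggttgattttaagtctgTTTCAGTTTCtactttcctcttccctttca
Slfn8: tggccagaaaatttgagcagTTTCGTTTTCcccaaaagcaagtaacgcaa
Isg15: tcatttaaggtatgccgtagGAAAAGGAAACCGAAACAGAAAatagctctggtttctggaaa
Ifit1: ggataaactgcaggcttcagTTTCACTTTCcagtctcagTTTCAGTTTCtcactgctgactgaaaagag
Oas1a: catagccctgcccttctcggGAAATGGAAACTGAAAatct
Rsad2: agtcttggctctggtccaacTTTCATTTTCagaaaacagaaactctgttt
Oas3: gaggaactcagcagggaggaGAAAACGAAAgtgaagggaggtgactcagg
Stat2: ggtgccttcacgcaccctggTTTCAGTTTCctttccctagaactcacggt
Bst2: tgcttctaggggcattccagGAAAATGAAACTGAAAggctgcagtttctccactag

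The stretches of Ifit3 (chr19:34583353-34583436, plus strand) and Ifit3b (chr19:34607749-34607832, plus strand) are identical over 84 bases. That of Slfn8 is chr11:83020829-83020878 on the minus strand. Isg15 (chr4:156200855-156200916, minus strand) holds 3 overlapping cores within 62 bases, from 98 to 37 bases before its start. Ifit1 (chr19:34640765-34640833, plus strand) holds 2 separate cores, as Ifit3 does, and Oas1a (chr5:120907526-120907565, minus strand) 2 overlapping ones. Rsad2 (chr12:26456543-26456592, minus strand), Oas3 (chr5:120777705-120777754, minus strand) and Stat2 (chr10:128270256-128270305, plus strand) hold 1 core each in the printed stretch. Bst2 (chr8:71537567-71537622, minus strand) holds 2 overlapping cores and also a GAS. The core was in 4 of 4 windows of members that kept their KI excess, 5 of 11 of those that kept it at 24 h only and 6 of 7 of those that lost it early. It was in 0 of 4 windows of the members with a naive log2 difference under 0.5, Irf9, Dtx3l, Phf11d and Ifi35. These counts are small and were not tested. The core was also found for Slfn5, Ifih1, Phf11a, Phf11b and Trim30a.

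In naive cells all 35 genes were higher in KI, and the median log2 fold change over wt was 1.39 against 0.01 over all tested genes. In 34 of 35, all but Phf11d, every KI library lay above every wt library, and 6.56% of tested genes did so. By edgeR 10 members had been called higher, where 0.113% of tested genes were, and nothing is read from either share because this contrast chose the genes. The largest naive differences were those of Ifit3b (log2 fold change 2.77), Ifi44 (2.72), Oas2 (2.55) and Rsad2 (2.33), and the smallest those of Irf9 (0.23) and Phf11d (0.29). The mean log2 CPM over the 35 genes (0.5 added to each CPM) was 6.69 to 6.79 in naive KI libraries, 5.32 to 5.54 in naive wt and 5.14 to 5.58 in naive libraries labelled KO. In bulk RNA, more cells that express a gene and more RNA per cell cannot be told apart.

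**Figure D1:**
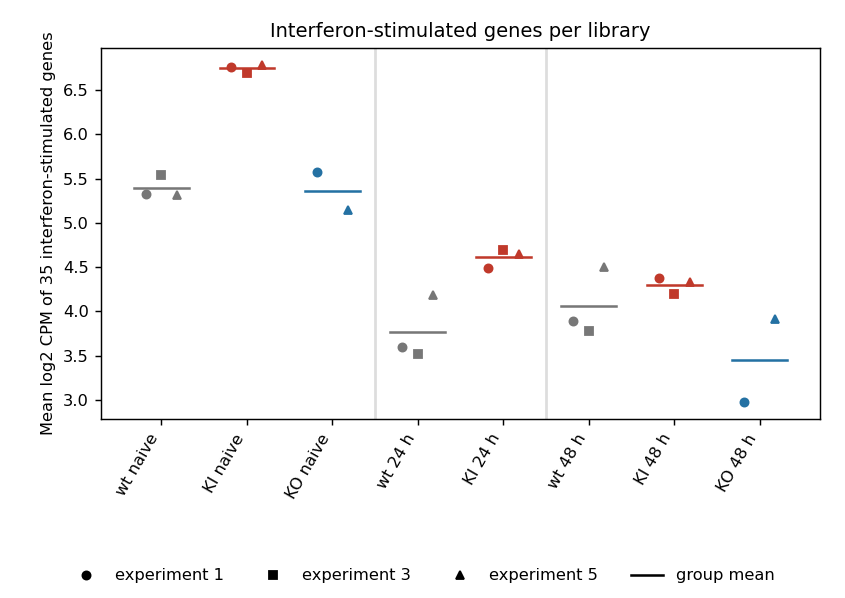
Mean log2 CPM of the 35 interferon-stimulated genes (vertical axis, log2 CPM) in each of the 22 libraries by group (wt grey, KI red, libraries labelled KO blue), with experiments 1, 3 and 5 as circles, squares and triangles and a line at the group mean. Naive KI libraries (6.69 to 6.79) lie above all others, all groups are lower after stimulation, and the wt library of experiment 5 lies above the other wt libraries at 24 h and 48 h.

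Levels per length were compared with the authors' FPKM (normalized counts per kilobase of gene length). In naive wt cells the order was led by Ifi27l2a with 145 ± 44.5 FPKM (SD, n = 3), then Bst2 with 77.3 ± 2.60 and Lgals3bp with 59.6 ± 4.37. Slfn8 (51.5 ± 1.46) and Trim30a (50.8 ± 5.46) followed and did not differ beyond their spread. Ifi44 was the lowest with 0.459 FPKM. In naive KI cells Ifi27l2a (360 ± 45.8) and Bst2 (154 ± 6.28) again led, and Ifit3 (142 ± 12.4) and Irf7 (128.5 ± 6.53) came next. At 48 h Bst2 led in wt with 162 ± 63.5 FPKM and Ifi27l2a followed with 131 ± 21.2, a gap within their spread, while in KI Ifi27l2a (104 ± 6.97) stood above Bst2 (80.1 ± 12.1).

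In wt cells most of the set was lower after 24 h of stimulation than in naive cells. No cells cultured without stimulation were among the groups used here, so stimulation and time in culture cannot be told apart. Levels are relative to library totals, so a change in total RNA per cell would not show. Of the 35 members 27 fell (edgeR adjusted p under 0.05), where 22% of tested genes were called lower, and 1 rose, Parp9, where 26.3% were called higher. The median log2 fold change was -1.598 against -0.05 over all tested genes. In KI cells 31 members fell (15.8% of tested genes) and 0 rose (22.9%), with a median of -2.13 against 0.01. The steepest wt changes were those of Rsad2, an enzyme that makes a chain-terminating nucleotide, at -4.75, and of Oas2 and Slfn5. These comparisons use the naive libraries that chose the genes, so the larger fall in KI starts from levels selected to be high. Markers of other cell types fell over the same interval in wt: 4 of 4 NK genes were called lower (median log2 fold change -4.86), 7 of 7 myeloid genes (-3.99), 4 of 5 plasmacytoid dendritic cell genes (-3.36) and 3 of 7 B cell genes (-1.70). Of the 294 to 304 CPM of the plasmacytoid dendritic cell list in naive wt, the defining Siglech made up at most 1.498. In KI 4 of 4 NK genes, 4 of 7 myeloid, 3 of 5 plasmacytoid dendritic cell and 0 of 7 B cell genes were called lower. The part of these cells in the fall of the 35 genes was not tested.

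By role, all 5 members of the Oas family, whose products sense double-stranded RNA and make the activator of RNase L or resemble such enzymes, fell at 24 h in wt. So did both Isg15 pathway genes and all 6 other induced genes (Rtp4, Ifi44, Ifi27l2a, Ifi35, Xaf1 and Lgals3bp). The 3 transcription factors Irf7, Irf9 and Stat2 also fell. Of 7 antiviral effectors (Mx1, Rsad2, Cmpk2, Bst2, Slfn5, Slfn8 and Trim30a) 6 fell and Bst2 was not called. Of 3 Ifit genes Ifit1 and Ifit3b fell and Ifit3 (-1.598, edgeR adjusted p 0.0502) was not called, and of 3 sensors Ifih1 and Dhx58 fell and Zbp1 (-0.41) was not called. Of the Phf11 genes Phf11a fell, and Phf11b (-0.06) and Phf11d (-1.05) were not called. None of the 3 ADP-ribosylation genes fell: Parp9 rose (log2 fold change 0.38, edgeR adjusted p 0.0427), and Dtx3l (0.29) and Parp14 (0.01) were not called. Parp9 and its partner ubiquitin ligase Dtx3l start 681 bases apart on opposite strands and have overlapping exons.

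From 24 h to 48 h the wt cells regained part of the set. In wt 16 of 35 members and 21.35% of all tested genes had an unadjusted p under 0.05. By edgeR 10 members rose, where 4.08% of tested genes were called higher, and 0 fell (3.41%). They were the modifier Isg15 (log2 fold change 1.84), the effector Rsad2 (1.79), the helicases Dhx58 (1.56) and Ifih1 (1.23), the Oas family members Oasl1 (1.20) and Oas3 (0.68), Usp18 (1.14), Bst2 (0.89), Ifi27l2a (0.81) and Stat2 (0.67). DESeq2 called these 10 and Phf11a higher and 0 lower, and 12.9% of the genes it tested in either direction. Dhx58 and Usp18 were called in each of the 16 alternative fits, while the others were each lost in at least 1. The count was 2 without wt replicate 1, 4 without wt replicate 3 and 6 without wt replicate 5. In that order, these fits called 0.636%, 6.72% and 2.51% of tested genes in either direction. Against naive cells, 21 members were still lower in wt at 48 h (26.8% of tested genes) and 2 higher, Bst2 (1.16) and Parp9 (0.37), where 29.5% were called higher.

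The KI cells showed no such rise in the main fit. Between 24 h and 48 h edgeR called 0 KI members, where 1.71% of tested genes were called higher and 0.968% lower. Unadjusted p-values under 0.05 were found for 3 of 35 members and for 15.52% of all tested genes. DESeq2 called 1, Oas2 lower, and 6.43% of the genes it tested. A fit of the compared groups alone called 6 lower, Oas2, Oas3, Ifit3, Ifit3b, Slfn5 and Xaf1, and 7.44% of tested genes in either direction. With the experiment as a replicate block 1 was called, Oas3 lower, and 3.58% of tested genes. Log2 fold changes were below 0 for 28 of 35, with a median of -0.34, against a median of 0.33 in wt. The difference between these changes, KI minus wt, was below 0 for 28 of 35 with a median of -0.75. Its own test called 0 members by edgeR, where 0.00472% of tested genes were called in either direction, with 11 of 35 at an unadjusted p under 0.05 and 5.66% of all tested genes. DESeq2 called 3, Dhx58, Oas3 and Usp18, and 0.274% of the genes it tested. Without a KO mouse edgeR called 1, Oas3, and at most 0.0501% of tested genes. For the KI change itself, edgeR called 1 member higher and 1 lower without KO replicate 1. It called 2 lower without wt replicate 5, and 1 lower without KO replicate 5 or wt replicate 3. These fits called 2.87% to 5.41% of tested genes in either direction. At 48 h 32 KI members were lower than in naive KI cells (22.1% of tested genes) and 0 higher (26.6%). These tests also start from the naive KI libraries that chose the genes.

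**Figure D2:**
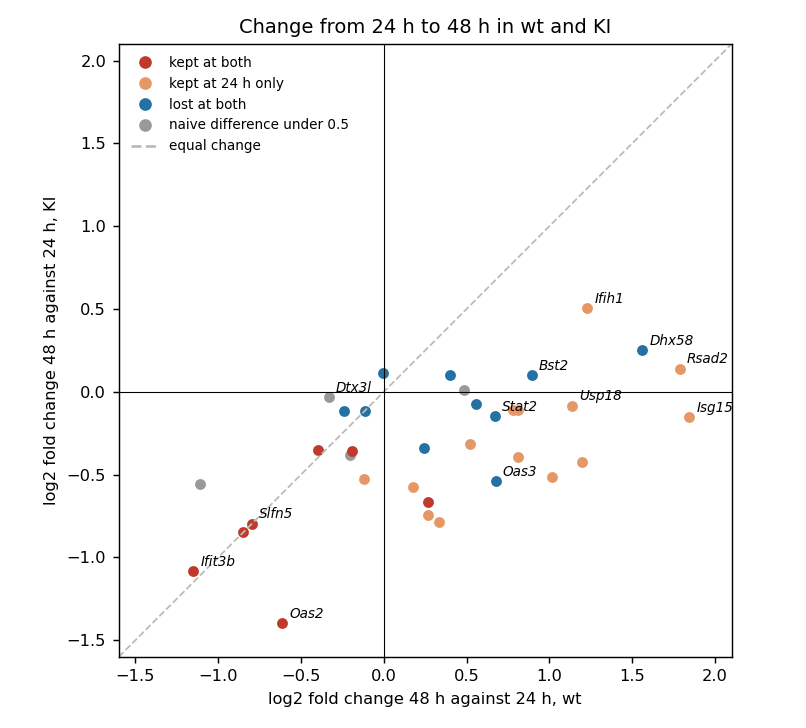
Log2 fold change from 24 h to 48 h of each of the 35 genes in wt (horizontal axis) and KI (vertical axis), coloured by how much of the naive KI excess remained, with a dashed line of equal change. Most points lie below the line: Isg15 is at 1.84 in wt and -0.15 in KI, and Slfn5 and Ifit3b, which kept their KI excess, lie near the line in the lower left.

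KI and wt cells were next compared at the same time after stimulation, which uses no naive library. At 24 h 34 of 35 members had a positive log2 fold change, with a median of 0.87 against 0.01 over all tested genes, and the exception was Bst2 at -0.21. EdgeR called 0 of them, where 0.00472% of tested genes (the 1 gene called was Tcaim) were called in either direction. An unadjusted p under 0.05 was found for 22 of 35 and for 8.98% of all tested genes. DESeq2 called 5 higher, Oas1a, Oas2, Oasl1, Usp18 and Rsad2, and 0.299% of the genes it tested in either direction. In 19 members every KI library lay above every wt library, where 10.8% of tested genes did so, and in 0 members below (9.41%). Within experiments 1, 3 and 5 the median KI minus wt difference over the members was 0.726, 1.01 and 0.418 log2 units, and 26 members were higher in KI in 3 of 3. Of all tested genes 50.37%, 49.75% and 50.53% were higher in KI in these experiments. The share of them higher in 3 of 3 was not computed. At 24 h the plasmacytoid dendritic cell list summed to 102.9 to 112.8 CPM in KI and 81.02 to 102.3 in wt, and the CD8 list of 6 genes to 3518 to 3953 and 3155 to 3404, both without overlap. Of the B cell markers 7 of 7 and of the myeloid markers 6 of 7 had a positive log2 fold change, with 0 called and overlapping sums. The part of these markers in the 24 h differences was not tested.

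The wt library of replicate 5 at 24 h was the highest wt library for 30 of the 35 genes, with a mean log2 CPM of 4.19 against 3.52 and 3.60 in the other wt libraries. It came from a female mouse and the others from males, and the part of sex in this was not tested. Without that mouse edgeR called 5 members higher in KI at 24 h, Zbp1, Oas1a, Oas2, Usp18 and Slfn5, where 0.162% of tested genes were then called in either direction. Without KO replicate 1 or KO replicate 5 it called 2, Oasl1 and Usp18, where 0.041% and 0.0361% of tested genes were called.

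At 48 h members lay on both sides of wt. Of 35 members 24 were positive and 11 negative, with a median of 0.19 against 0.00 over all tested genes. EdgeR called 3 higher in KI, Oas2, Slfn5 and Dtx3l, where 2.28% of tested genes were called higher, and 3 lower, Bst2, Dhx58 and Oas3, where 1.89% were called lower. DESeq2 called these 6 and also Stat2 lower and Ifit3b higher, and 9.16% of the genes it tested in either direction. Every KI library lay above every wt library for 5 members, Oas2, Ifit3b, Slfn5, Parp9 and Dtx3l (10.8% of tested genes). Every KI library lay below for 6, Stat2, Dhx58, Oas3, Isg15, Bst2 and Ifi27l2a (9.78%). Both counts are near the share of all tested genes and are no result about the set. Each of the 6 calls was lost when only the compared groups were fitted and without KI replicate 1, and 0 members were called without KI replicate 1, KI replicate 3 or wt replicate 1. The count was 2 without wt replicate 3 or KI replicate 5 and 8 without wt replicate 5. In that order, these fits called 6.15%, 1.91% and 2.74% of tested genes in either direction. The median within experiments 1, 3 and 5 was 0.489, 0.39 and -0.194 log2 units, so experiment 5 went the other way for the median member. Of the marker lists, the plasmacytoid dendritic cell list summed to 94.5 to 120 CPM in KI and 56.4 to 81.5 in wt at 48 h, without overlap, while its defining Siglech had at most 0.21 and 0.0402 CPM. The memory CD8 list overlapped at 48 h (757 to 1120 against 729 to 1141 CPM), as did the B cell list (769 to 1298 against 614 to 1068 CPM). Still, 7 of 7 B cell markers (median log2 fold change 0.71), 4 of 4 NK (2.25) and 5 of 7 myeloid (0.41) were positive, with 0 called. The NK sums were at most 1.73 CPM in KI and 1.16 in wt. Of the plasmacytoid dendritic cell list 4 of 5 and of the memory CD8 list 4 of 8 were positive, with 1 of each called higher. The part of these markers in the 48 h differences was not tested.

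**Figure D3:**
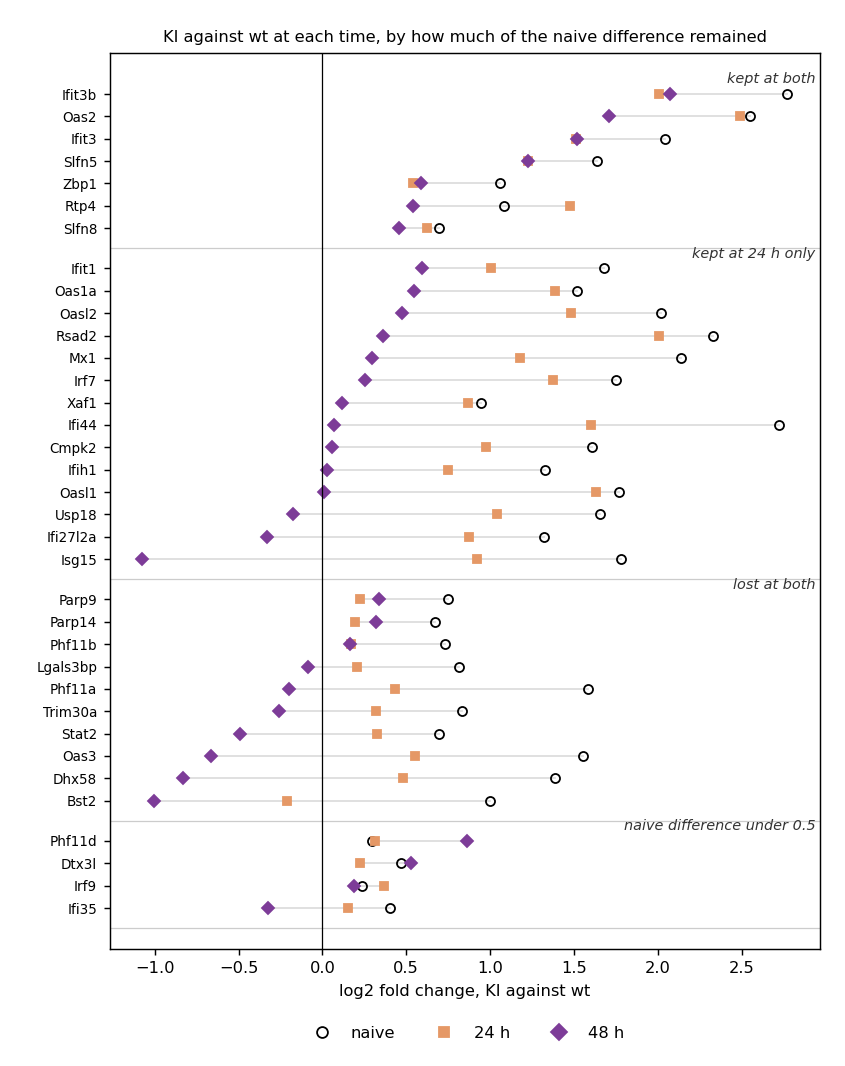
Log2 fold change of KI against wt (horizontal axis) for each of the 35 genes (rows) in naive cells (open circles), at 24 h (squares) and at 48 h (diamonds), grouped by whether at least 0.5 of the naive log2 difference remained at both times, at 24 h only or at neither. The diamonds of Ifit3b, Oas2, Ifit3 and Slfn5 stay above 1, and those of Isg15 (-1.07) and Bst2 (-1.003) lie farthest to the left.

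Members with a naive log2 difference of at least 0.5, of which there were 31, were sorted by the share of it that was left. A share of 0.5 at both 24 h and 48 h was kept by 7: Zbp1, Oas2, Ifit3, Ifit3b, Slfn5, Slfn8 and Rtp4. It was kept at 24 h only by 14: Irf7, Ifih1, Oas1a, Oasl1, Oasl2, Ifit1, Isg15, Usp18, Mx1, Rsad2, Cmpk2, Ifi44, Ifi27l2a and Xaf1. It was lost at both times by 10: Stat2, Dhx58, Oas3, Bst2, Trim30a, Parp9, Parp14, Phf11a, Phf11b and Lgals3bp. Rtp4, with a share of 0.5003 at 48 h, was just inside the first set and Parp14, with 0.473 at 48 h, outside it. At 24 h Zbp1 (0.509) and Isg15 (0.517) were just inside and Stat2 (0.467) just outside, and Dtx3l, with a naive difference of 0.47, was just under the size that was classed. Without wt replicate 5 the first set held 12 members and the last 5, and without wt replicate 3 the first held 4. The sorting uses fitted values without a test: 0 members were called at 24 h, and of the first set Oas2 and Slfn5 alone at 48 h. Rtp4 (log2 fold change 0.54, SE 0.712) and Slfn8 (0.46, SE 0.238) were not called at 48 h (edgeR adjusted p 0.756 and 0.327). Each share is taken of the naive difference that chose the genes, a value selected to be high.

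The sets differed in what wt cells did between 24 h and 48 h, given here without a test because the same wt libraries enter the sorting. Among the 7 members that kept their excess, 6 had a negative wt log2 fold change (range -1.15 to 0.27, median -0.61). Among the 24 that did not keep it at 48 h, 20 had a positive one, with a median of 0.81 in the 14 and 0.48 in the 10. All 10 members that rose in wt over this interval were among these 24. In KI the medians over this interval were -0.80 for the 7 and -0.36 for the 14.

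Of the transcription factors, Irf9, the DNA-binding part of ISGF3 and the one with the highest mean log2 CPM, had 162, 166 and 177 CPM in naive KI and 136, 143 and 150 in naive wt (replicates 1, 3 and 5 here and below). At 24 h it had 117, 106 and 128 CPM in KI and 87.5, 68.7 and 116 in wt, and at 48 h 103, 78.9 and 87.1 against 73.7, 58.3 and 104. Cells labelled KO had 156 and 155 CPM naive and 53.1 and 82.9 at 48 h. The KI and wt ranges of Irf9 overlapped at both stimulated times, and it shares exons with Rnf31 on the same strand.

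Stat2, the transactivating part of ISGF3, had 149, 141 and 131 CPM in naive KI against 83.7, 97.6 and 78.5 in wt. At 24 h it had 72.3, 83.9 and 79.9 CPM in KI and 54.7, 49.0 and 84.7 in wt. At 48 h it had 79.0, 68.6 and 65.5 CPM in KI, all below the wt values of 95.9, 94.5 and 109 (log2 fold change -0.49, SE 0.165, edgeR adjusted p 0.105). In the KO-labelled libraries the values were 106 and 81.6 CPM naive and 72.4 and 84.3 at 48 h. Stat2 thus turned from higher to lower in KI by its group means, a 48 h difference that did not pass the test. Irf7, which amplifies interferon production, had 329 ± 19 CPM in naive KI and 97.6 ± 7.1 in wt (SD, n = 3), and 34.9 ± 8.0 against 13.5 ± 9.2 at 24 h. By 48 h it had 20.3 ± 5.1 and 16.99 ± 9.05 CPM.

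**Figure D4:**
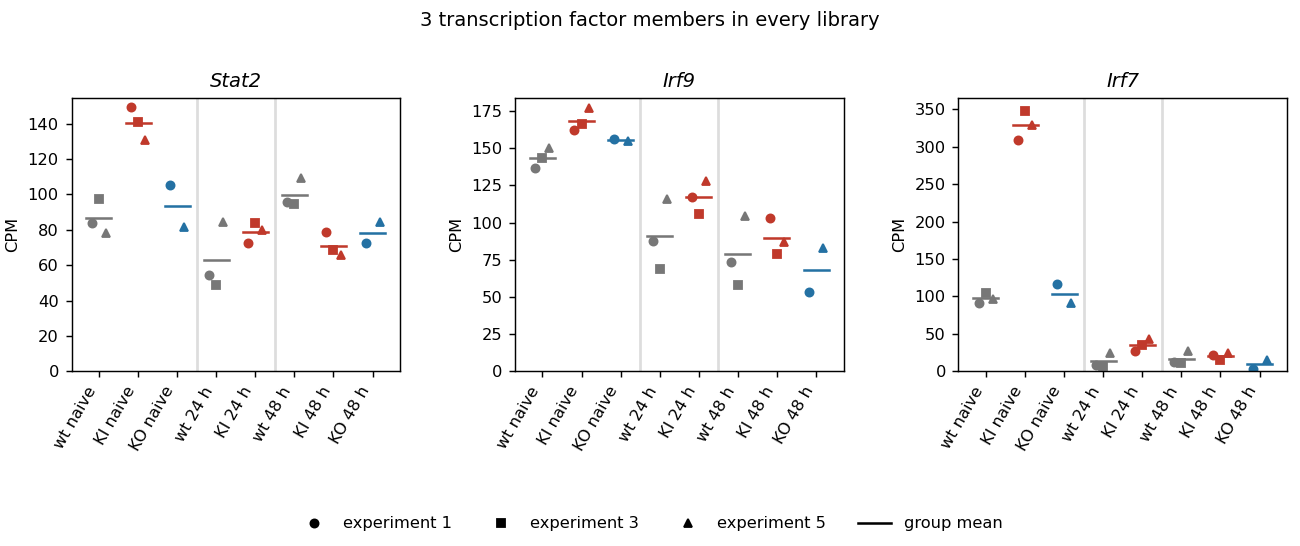
CPM of Stat2, Irf9 and Irf7 in each library by group, on linear axes from 0, with symbols for the experiments and a line at each group mean. At 48 h the KI libraries of Stat2 (65.5 to 79.0 CPM) lie below the wt libraries (94.5 to 109 CPM), while those of Irf9 and Irf7 overlap them.

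Of the sensors, Zbp1, which binds Z-form nucleic acid and can start necroptosis, had 290, 286 and 300 CPM in naive KI and 138, 156 and 128 in wt. At 24 h it had 144.8, 160 and 154 CPM in KI and 88.0, 83.2 and 144.7 in wt, where replicate 5 lay just under the lowest KI library (144.8). At 48 h it had 127, 100 and 133 CPM in KI and 64.8, 59.97 and 115 in wt (log2 fold change 0.59, SE 0.223, edgeR adjusted p 0.156). The KO-labelled libraries held 158 and 130 CPM naive and 62.7 and 84.6 at 48 h. Zbp1 was higher in KI in 3 of 3 experiments at each time.

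Dhx58 (LGP2), a helicase that tunes RNA sensing by Ifih1 (MDA5), had 76.5, 74.3 and 73.3 CPM in naive KI against 25.5, 33.9 and 26.3 in wt. At 24 h KI libraries had 10.2, 12.6 and 12.9 CPM and wt libraries 6.78, 6.596 and 12.2. At 48 h KI libraries had 13.8, 14.9 and 13.7 CPM, all below the wt values of 22.4, 24.0 and 28.9. The log2 fold change at 48 h was -0.83 (SE 0.207, edgeR adjusted p 0.0283), and over 16 alternatives the adjusted p reached 0.205. In wt the 48 h values overlapped the naive ones, and in KI they did not. Levels in libraries labelled KO were 38.6 and 28.8 CPM naive and 14.01 and 19.8 at 48 h, below all wt libraries. Dhx58 overlaps the antisense gene Dhx58os. Ifih1 had 66.1 ± 2.1 CPM in naive KI and 26.4 ± 2.0 in wt, and its levels at 48 h, 19.5 ± 3.5 and 19.2 ± 2.7 CPM, overlapped.

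**Figure D5:**
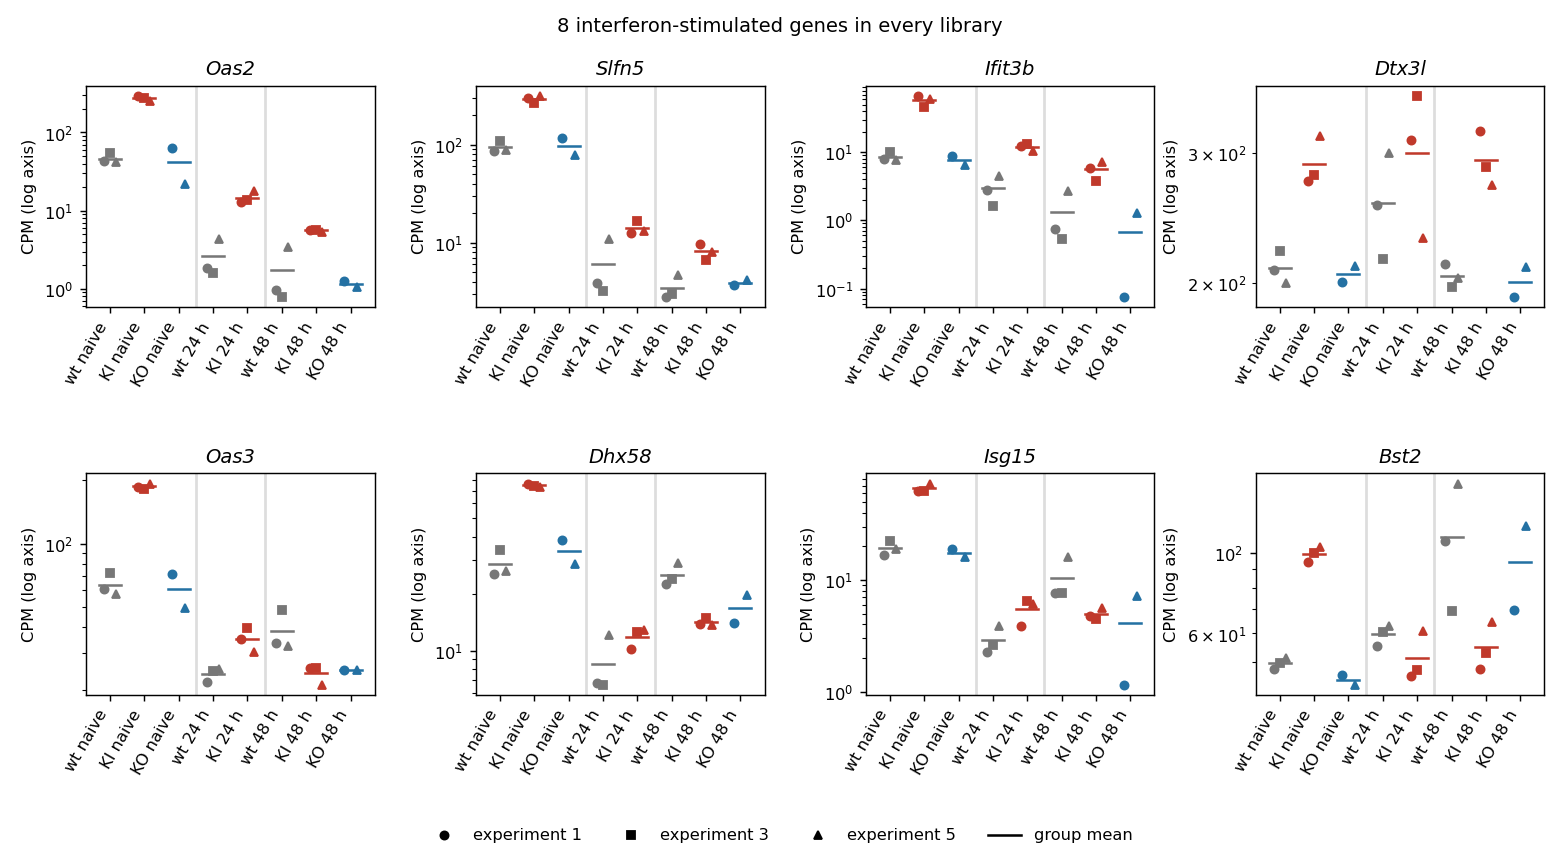
CPM on a log axis of 8 of the interferon-stimulated genes in each library by group, with symbols for the experiments and a line at each group mean. In the top row, KI libraries of Oas2, Slfn5, Ifit3b and Dtx3l lie above the wt libraries at 48 h, and in the bottom row those of Oas3, Dhx58, Isg15 and Bst2 lie below them.

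The Oas family went 2 ways at 48 h. Oas2 had 294, 272 and 250 CPM in naive KI and 42.7, 55 and 41.5 in wt. It had 12.9, 13.6 and 17.6 against 1.86, 1.59 and 4.36 CPM at 24 h, and 5.66, 5.71 and 5.38 against 0.954, 0.781 and 3.42 at 48 h. KI libraries were above all wt libraries at each time. The log2 fold change was 2.49 at 24 h (SE 0.459, edgeR adjusted p 0.161) and 1.71 at 48 h (SE 0.46, edgeR adjusted p 0.042), and the latter fell to 1.36 without wt replicate 3 and rose to 2.68 without wt replicate 5. Cells labelled KO had 62.8 and 22.1 CPM naive and 1.25 and 1.04 at 48 h.

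Oas3, its neighbour on chromosome 5 (Oas2 at 120730333 to 120749853, Oas3 at 120753098 to 120777661, GRCm38, both on the minus strand), had 186, 182 and 193 CPM in naive KI and 60.6, 72.5 and 57.7 in wt. At 24 h the KI libraries, with 35.3, 39.4 and 30.5 CPM, were still above the wt libraries with 21.8, 24.7 and 25.2. At 48 h they had 25.5, 25.5 and 21.2 CPM and were below the wt libraries, with 33.6, 48.4 and 32.6 (log2 fold change -0.66, SE 0.161, edgeR adjusted p 0.0239). In the KO-labelled libraries the values were 71.7 and 49.5 CPM naive and 25.0 and 25.1 at 48 h. The KI minus wt difference of the change from 24 h to 48 h was -1.22 for Oas3 (SE 0.227, edgeR adjusted p 0.18) and -0.78 for Oas2 (SE 0.631, edgeR adjusted p 0.989).

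The other Oas family members did not differ between KI and wt at 48 h beyond the test. Oas1a had 5.75 ± 0.26 and 3.94 ± 2.3 CPM in KI and wt, but 47.6% of the 75-base words in its exons also occur in another gene, chiefly Oas1g, so its counts are uncertain. Oasl1 had 3.15 ± 0.35 and 3.13 ± 0.96 CPM, after 4.22 ± 0.99 and 1.36 ± 0.58 at 24 h. Oasl2 had 5.65 ± 3.1 and 4.08 ± 3.9 CPM.

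The Ifit proteins bind viral RNA at its cap or free end. Ifit3 had 213, 190 and 225 CPM in naive KI and 46.1, 59.4 and 47.1 in wt. It had 43.5, 48.6 and 51.9 against 12.7, 7.69 and 30 CPM at 24 h, and 30.1, 17.5 and 32.5 against 4.82, 3.54 and 19.7 at 48 h. The KI and wt ranges did not overlap at 24 h, while at 48 h wt replicate 5 lay above KI replicate 3 (log2 fold change 1.52, SE 0.652, edgeR adjusted p 0.222). The KO-labelled libraries held 47.7 and 37.1 CPM naive and 0.730 and 8.91 at 48 h.

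Ifit3b, with the identical promoter stretch, followed the same course. It had 67.0, 46.6 and 61.2 CPM in naive KI and 8.04, 9.89 and 7.65 in wt, then 12.2, 12.99 and 10.4 against 2.74, 1.61 and 4.51 at 24 h. At 48 h it had 5.78, 3.82 and 7.20 CPM in KI, all above 0.751, 0.542 and 2.72 in wt (log2 fold change 2.07, SE 0.596, edgeR adjusted p 0.0569). With the experiment as a replicate block it was called (edgeR adjusted p 0.0303, with a range of 0.0137 to 0.318 over 16 alternatives). Levels in libraries labelled KO were 8.83 and 6.48 CPM naive and 0.0745 and 1.28 at 48 h. Of the 75-base words in Ifit3 and Ifit3b, 41.1% and 35.7% occur in another gene, chiefly each other, so the split of reads between them is uncertain. Ifit1 had 17.1 ± 2.6 CPM in KI and 11.3 ± 5.6 in wt at 48 h.

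Isg15, the ubiquitin-like modifier, had 62.0, 63.0 and 73.0 CPM in naive KI and 16.5, 22.2 and 18.9 in wt. At 24 h KI libraries had 3.85, 6.53 and 6.12 CPM and wt libraries 2.25, 2.61 and 3.85, the lowest KI and the highest wt library being level. At 48 h KI libraries had 4.79, 4.49 and 5.59 CPM, all below the wt values of 7.68, 7.64 and 16 (log2 fold change -1.07, SE 0.418, edgeR adjusted p 0.17). Isg15 therefore rose in wt after 24 h (log2 fold change 1.84, edgeR adjusted p 0.013) and stayed level in KI by its values. Cells labelled KO had 18.8 and 16.1 CPM naive and 1.15 and 7.10 at 48 h.

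Usp18, the protease that removes Isg15, had 168, 161 and 175 CPM in naive KI and 52.1, 61.6 and 46.2 in wt. It had 38.6, 44.1 and 37.4 against 20.2, 17.1 and 21.1 CPM at 24 h, when all KI libraries were above all wt libraries. At 48 h it had 36.4, 45.9 and 31.1 CPM in KI and 43.0, 34.0 and 51.3 in wt, which overlapped. The rise in wt was 1.14 log2 units (SE 0.178, edgeR adjusted p 0.000905), and the KI change was -0.08 (edgeR adjusted p 0.896). In the KO-labelled libraries the values were 45.9 and 33.3 CPM naive and 28.8 and 21.8 at 48 h. An exon of Usp18 lies over Gm44148 on the opposite strand.

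Among the antiviral effectors, Bst2 (tetherin, which holds budding virus at the cell surface) went against the set. It had 94.6, 100 and 104 CPM in naive KI and 48.0, 49.6 and 51.4 in wt. At 24 h KI libraries had 45.9, 47.6 and 60.9 CPM and wt libraries 55.3, 60.5 and 63.1. At 48 h KI libraries had 48.0, 53.1 and 64.7 CPM, below the wt values of 108, 69.1 and 155 (log2 fold change -1.003, SE 0.221, edgeR adjusted p 0.0148). The fold change was -0.68 without wt replicate 5, and the call was then lost. Bst2 was lower in KI in 3 of 3 experiments at both stimulated times, and it is the member whose share of the naive difference ended lowest, at -1.002. The KO-labelled libraries held 46.2 and 43.3 CPM naive and 69.6 and 119 at 48 h.

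Slfn5, a Schlafen family protein, kept the largest share of its naive difference at 48 h, 0.750, among the 31 members with a naive log2 difference of at least 0.5. It had 300, 264 and 314 CPM in naive KI and 85.8, 108 and 88.7 in wt, then 12.6, 16.7 and 13.04 against 3.89, 3.21 and 10.97 at 24 h. At 48 h it had 9.72, 6.61 and 8.08 CPM in KI and 2.77, 3.00 and 4.67 in wt (log2 fold change 1.23, SE 0.334, edgeR adjusted p 0.0438). The ranges did not overlap at any time. Levels in libraries labelled KO were 116 and 77.5 CPM naive and 3.65 and 4.16 at 48 h, among the wt values. Slfn5 overlaps the antisense gene Slfn5os.

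Trim30a, a ubiquitin ligase of the TRIM family and the effector with the highest mean level, had 355, 303 and 349 CPM in naive KI and 189, 207 and 170 in wt. After stimulation the groups overlapped, with 168, 180 and 142 against 123, 115 and 154 CPM at 24 h and 149, 133 and 106 against 148, 133 and 184 at 48 h. Cells labelled KO had 214 and 186 CPM naive and 87.7 and 142 at 48 h. Slfn8 had 57.9 ± 7.3 CPM in KI and 42.1 ± 15 in wt at 48 h. The GTPase Mx1 had 8.65 ± 2.2 and 7.06 ± 2.1 CPM, Rsad2 2.17 ± 0.71 and 1.70 ± 0.82, and Cmpk2, the kinase encoded beside Rsad2, 5.80 ± 1.2 and 5.57 ± 0.58. Naive KI levels of these 3 had been 136 ± 36, 66.4 ± 7.0 and 69.2 ± 2.2 CPM.

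Dtx3l, the ubiquitin ligase that works with Parp9, had 275, 280 and 316 CPM in naive KI and 208, 221 and 200 in wt. At 24 h the groups overlapped, with 312, 359 and 230 against 255, 215 and 300 CPM. At 48 h KI libraries had 322, 288 and 272 CPM, above the wt values of 212, 197 and 203 (log2 fold change 0.53, SE 0.142, edgeR adjusted p 0.0423). With the experiment as a replicate block the edgeR adjusted p was 0.0512. In the KO-labelled libraries the values were 200 and 211 CPM naive and 191 and 210 at 48 h. Parp9 had 183 ± 12 CPM in KI and 145 ± 18 in wt at 48 h, without overlap, and Parp14 had 234 ± 37 and 188 ± 65.

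Phf11b, a PHD finger protein of a gene cluster on chromosome 14, had 52.1, 51.9 and 55.6 CPM in naive KI and 30.1, 33.0 and 33.2 in wt. It had 37.6, 33.8 and 32.7 against 31.7, 27.9 and 32.9 CPM at 24 h and 33.9, 29.6 and 32.6 against 23.6, 38.9 and 23.1 at 48 h. The groups overlapped at both stimulated times. The KO-labelled libraries held 33.9 and 31.0 CPM naive and 37.5 and 20.7 at 48 h. Phf11a had 3.22 ± 0.47 CPM in KI and 3.69 ± 0.24 in wt at 48 h, and Phf11d 1.01 ± 0.21 and 0.556 ± 0.39. Words shared with other genes of the cluster make up 26.9% of Phf11b and 17.4% of Phf11a.

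Lgals3bp, a secreted glycoprotein, had 232, 250 and 273 CPM in naive KI and 137, 153 and 138 in wt. After stimulation the groups overlapped, with 66.7, 81.6 and 71.5 against 56.1, 70.7 and 63.6 CPM at 24 h and 77.0, 74.8 and 84.4 against 93.0, 61.2 and 96.6 at 48 h. Levels in libraries labelled KO were 149 and 139 CPM naive and 21.1 and 84.6 at 48 h. Ifi27l2a had 56.8 ± 6.3 CPM in KI and 31.0 ± 6.5 in wt at 24 h, and 43.3 ± 2.7 and 54.4 ± 9.1 at 48 h, each without overlap. Rtp4 had 9.32 ± 3.9 and 6.41 ± 5.3 CPM at 48 h, Xaf1 18 ± 3.1 and 16.6 ± 6.1, Ifi35 48.0 ± 7.2 and 59.98 ± 18.8, and Ifi44 0.902 ± 0.19 and 0.858 ± 0.047.

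Other genes of the pathway came from lists chosen with earlier results known. Ligands were hardly counted: of 20 interferon genes other than Ifng, 7 were at 0 in every library and the highest count in any library was 14. Ifnb1 had 2 counts in 1 wt library at 48 h and 0 in the other 21, which allows up to 3 counts there. Ifng, the type II interferon, had 53.7, 37.2 and 134 CPM in wt at 48 h and 5.95, 8.85 and 33.2 in KI, without overlap. Its rise in wt from 24 h to 48 h was 3.82 log2 units (SE 0.777, edgeR adjusted p 0.00574). Its KI against wt difference at 48 h was -2.23 (SE 0.724, edgeR adjusted p 0.0941).

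Ifnar1 and Ifnar2, the receptor chains, had KI against wt log2 fold changes of 0.21 and 0.17 at 24 h and -0.10 and 0.22 at 48 h, and 0 of these were called. Irf1, a factor induced by either interferon type, had 448, 405 and 415 CPM in KI and 298, 237 and 400 in wt at 48 h (log2 fold change 0.44, edgeR adjusted p 0.277). The feedback inhibitor Socs1 had a log2 fold change of 0.33 (edgeR adjusted p 0.646). None of 7 feedback genes and none of 7 other interferon regulatory factors was called between KI and wt at 24 h or 48 h. At 24 h 0.00472% of all tested genes were called in either direction, and at 48 h 2.28% were called higher and 1.89% lower. With shares this small, 0 calls in lists this short are no result about them. Of 17 further nucleic acid sensing genes Samhd1, which breaks down deoxynucleotides, was called higher at 48 h (0.79, edgeR adjusted p 0.0352), and of 14 class I presentation genes Cd274, the PD-1 ligand, was (0.81, edgeR adjusted p 0.0388).

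A further 43 interferon-stimulated genes outside the set, all tested, were chosen the same way. At 24 h 40 of 43 were positive in KI against wt, with a median of 0.40. None was called, where 0.00472% of tested genes were called in either direction. At 48 h 7 were called higher and 2 lower, where 2.28% and 1.89% of tested genes were. Those higher were Ifi208 (2.26, edgeR adjusted p 0.00913), Ifit1bl1 (2.199), Ifi206 (1.53), Ifi209 (1.36), Uba7 (0.90), Samd9l (0.82) and Ifit2 (0.67, edgeR adjusted p 0.00362). Uba7 is the enzyme that activates Isg15, and Ifi206, Ifi208 and Ifi209 belong to the DNA-binding Ifi200 family. Those lower were Pnpt1 (-0.76) and Trim25 (-0.47), a ubiquitin ligase for RNA sensors. In wt from 24 h to 48 h, Ifi206, Ifi208, Ifi209 and Uba7 fell, and Trim25 rose. These genes were also higher in naive KI in 43 of 43 and share the libraries of the comparisons above.

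Libraries labelled KO were compared with wt last. Both KO mice were female and of another line than the wt mice, of which only replicate 5 was female. Sex and line were therefore not separated from the KO label. Cd4 had 16.5 and 184 CPM in the naive libraries labelled KO against 24.9 to 54.8 in wt. At 48 h it had 15.6 and 152 against 11.1 to 32.5 CPM, and the part of CD4 T cells was not tested. Naive, 0 members were called by edgeR, where 0.0236% of tested genes were called in either direction. Unadjusted p-values under 0.05 were found for 1 member and for 1.308% of all tested genes. The median log2 fold change was 0.02 and 19 of 35 were positive. It lay between 2 unlike libraries: replicate 1 was the higher for 33 of 35 genes, with a mean log2 CPM of 5.58 against 5.14 for replicate 5. Without KO replicate 1 the median was -0.20 and 7 members were positive, and without KO replicate 5 it was 0.15 and 28 were. The naive wt libraries also entered the naive contrast that chose the genes. At 48 h 33 of 35 members were negative, with a median of -0.58 against -0.01 over all tested genes. EdgeR called 0, where 0.0283% of tested genes were called. Unadjusted p-values under 0.05 were found for 11 members and for 6.92% of all tested genes. DESeq2 called 1, Oasl1 lower, and 0.137% of the genes it tested. In 10 members both libraries labelled KO lay below every wt library (4.71% of tested genes), namely Stat2, Dhx58, Oas3, Oasl1, Isg15, Usp18, Cmpk2, Phf11a, Ifi44 and Ifi27l2a, and in 0 they lay above (4.51%). Against their own naive level 27 members fell at 48 h (20.4% of tested genes) and 1, Bst2, rose (1.07, edgeR adjusted p 0.00368), where 23.6% were called higher. The count of members called was 16 without KO replicate 1. With only the compared groups fitted it was 3, Oas2, Slfn5 and Slfn8 lower, where 6.23% of tested genes were called in either direction, and the Bst2 call was lost.

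The 48 h difference from wt rested on single libraries. The library labelled KO of replicate 1 had the lower value for 29 of 35 genes, with a mean log2 CPM of 2.98 against 3.91 for replicate 5. Without KO replicate 5 the median was -0.91 and 3 members were positive, and without KO replicate 1 it was -0.20 and 11 were positive. Each of these fits keeps 1 library labelled KO at 48 h. It holds no spread between KO mice, so no calls are given. Without wt replicate 5, the highest wt library for 30 of 35 genes at 48 h, the median was -0.16 and 10 members were positive. The order of the 48 h group means over the 35 genes was KI (4.30 ± 0.098, SD, n = 3), wt (4.06 ± 0.388, SD, n = 3) and libraries labelled KO (3.45 ± 0.659, SD, n = 2), and the ranges of KI and wt, and of wt and KO, overlapped.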

How the data were processed

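RNA of 22 libraries from 8 mice was read as paired 75-base reads from a stranded mRNA kit, per the labels' protocols. The submitters' processing notes name bcl2fastq 2.20.0, TopHat2 2.1.0, Bowtie2 2.2.5, SAMtools 0.1.19, featureCounts and DESeq2 1.6.3, and the build GRCm38; whether counting used strand is not given in the sources used here. The authors deposited raw counts per gene, FPKM, and log2 normalized values. Checked on the files, the deposited FPKM equal normalized counts over 1 length per gene, and the deposited log2 values equal log2 of the count over 1 factor per library, plus 1.

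Counts were tested with edgeR 4.0.16 (R 4.3.3): filterByExpr (minimum count 10, total 15), TMM scaling, 1 model of the 8 groups, the robust quasi-likelihood test and Benjamini-Hochberg adjustment over all 21183 tested genes, with a threshold of 0.05. The robust option was adopted after the data were seen. The procedure was also run on simulated counts, with independent libraries and the same spread for all genes. That run cannot speak to libraries that share a mouse or an experiment. Each library of a group is a different mouse, so p-values measure the spread between mice, but libraries of 1 mouse at several times were fitted as independent. The members and all lists were chosen with earlier results of these data known. Values in every library are given for the member with the highest mean log2 CPM in each role, for members called between KI or KO and wt after stimulation, and for the 3 that kept and the 3 that lost most of the naive difference at 48 h. From other lists, Ifnb1, Ifng, Ifnar1, Ifnar2, Irf1, Socs1 and the genes with the smallest p are named, and further called genes were named after their values were seen. The labels give KI and wt libraries a shared experiment, so the numbers pair them: of 9 same-experiment pairs, deviations from group means correlated with a median r of 0.22, and 8 were above 0.1. Alternatives were DESeq2 1.42.0, other scalings, no filter, the compared groups alone, the replicate block, protein-coding genes alone, and each mouse left out. The result of 1 gene that the rule names is not reported here.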

Additional observations from a re-analysis of the deposited data

How the results depend on the processing

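Counts of members called, by edgeR unless named, moved by over 1.5 times under these alternatives. DESeq2 called 5 members for KI against wt at 24 h, 1 for KI from 24 h to 48 h, 3 for the KI minus wt difference of that change and 1 for KO against wt at 48 h, each against 0. With only the compared groups fitted, which uses fewer samples, the counts were 0 for KI against wt at 48 h (6 in the main analysis), 4 for wt from 24 h to 48 h (10), 6 for KI from 24 h to 48 h (0) and 3 for KO from naive to 48 h (28). Without the filter on low counts, KI against wt at 48 h gave 3. The replicate block gave 1 for KI from 24 h to 48 h, Oas3, and moved no other count by over 1.5 times, though at 48 h Dtx3l was lost and Ifit3b gained. Leaving out 1 mouse gave 0 to 5 for KI against wt at 24 h, 0 to 8 at 48 h, 2 to 11 for wt from 24 h to 48 h, 0 to 2 for KI over that interval, 0 to 1 for the difference, 0 to 19 for KO against wt at 48 h and 16 to 28 for KO from naive to 48 h. It left 4 to 12 members that kept their naive difference and 5 to 14 that lost it at both times. Parp9 in KI at 48 h against naive, -0.0395 in the main analysis and not called, ranged with a mouse left out from -0.0942 to 0.0316, above 0 without KI replicate 5. The causes were not tested beyond these constructions. With 3 mice or fewer a group, the smallest exact two-sided p for 3 against 3 is 0.1, so single-gene calls rest on the spread shared over genes.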
